A study of Canis lupus familiaris and Eptesicus fuscus and Equus caballus with 6 samples.

Results

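Small RNAs of 26, 27 or 28 nt, the length range known in mouse for piRNAs bound by the PIWI protein PIWIL2, were described in the adult testis of dog (Canis lupus familiaris), big brown bat (Eptesicus fuscus) and horse (Equus caballus). Members were taken by length alone, with identical listed sequences summed. They came to 1098397 of 2937574 distinct sequences in the dog, 196717 of 635917 in the bat and 1501444 of 3971863 in the horse. The study sequenced small RNA and mRNA from snap-frozen testes of these taxa, whose transposable elements are described in its title as distinct in activity. The labels do not say how many animals gave each library. The small RNA libraries are used here, 1 per species, with no treatment and no genotype named. With 1 library per species no difference has a replicate check, so no p-value is given. Intervals are exact (Clopper-Pearson) 95% binomial intervals and cover counting error only, since reads without molecular identifiers are not independent molecules.

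piRNAs guide PIWI proteins to transposable element RNA in the germ line. Their 5′ end is fixed when the precursor is cut and usually carries U, while the 3′ end is trimmed until it is covered by the PIWI protein, so that the protein sets the length. In mouse, PIWIL2 carries shorter piRNAs than PIWIL1, the main PIWI protein of meiotic spermatocytes. In the ping-pong cycle a PIWI protein slices a complementary transcript opposite the piRNA's 10th base, and the cut product becomes a new piRNA. Partners therefore overlap by 10 nt at their 5′ ends, and the partner of a U-first piRNA has A at position 10. Length alone does not show which protein held an RNA, and no protein was measured.

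The files list part of the RNAs as their reverse complement. Sequences were therefore also turned to RNA sense by their length variants, taking the end that variants share as the 5′ end, and are called oriented below. In the 26 to 28 nt class this placed 52.6% of the reads in the dog, 58.4% in the bat and 42.5% in the horse, of which 51.4%, 45.0% and 49.8% were reversed. Of the distinct short sequences it placed 14.6%, 21.9% and 14.45%, on which the counts by distinct sequence rest. In the 29 to 31 nt class it placed 57.0%, 63.6% and 53.1%. Among known RNAs of the shorter class it was right for 97.7% of the tRNA reads in the dog, 99.9% in the bat and 99.5% in the horse, but for 63.6%, 7.255% and 26.9% of the rRNA reads. By sequence it was right for 85.7%, 96.5% and 87.2% of the tRNA fragments, and for 74.7%, 43.1% and 58.6% of the rRNA fragments. Oriented rRNA amounted to 35176 reads in the bat. Values below leave out known RNAs only where this is stated, so the other oriented bat shares include these reads.

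The most read families show how the short and long forms of an RNA relate, where a family is all oriented sequences with the same first 24 nt. The direction of each family was inferred from its length variants and not checked on a genome. Only tRNA, rRNA and miRNA were screened, so a family can come from another structural RNA and be turned wrongly. The lines give the most read 29 to 31 nt form that extends the family's most read 26 to 28 nt form. They are DNA letters in the inferred 5′ to 3′ direction, with the bases missing from the short form in capitals.
Dog family 1: ctagattgtaagctcttgagcaccggaaC
Dog family 2: tacagatgagaaaactgaggcccagagaGG
Dog family 3: attcgacaaaacttattgagcacctaccA
Bat family 1: ttgcgttttctggacctagaactgtcagA
Bat family 2: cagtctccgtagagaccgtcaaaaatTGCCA
Bat family 3: tgagaaggcgtgactgacagatgcgtgtT
Horse family 1: tgagaagttcgttaggatgtcgcactccT
Horse family 2: tgacctcgagacaccctgactttggccGTG
Horse family 3: acagaccggaatacgagaacctagcagaA

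The 3 dog families had most reads at 28 nt. Dog family 1 had 3555, 37324 and 122778 reads at 26, 27 and 28 nt, against 69695, 4269 and 2040 at 29, 30 and 31 nt. It was the most read family of the class, with 2.20% of its reads, and begins with C. Dog family 2, which begins with U, had 57, 394 and 120661 reads at 26, 27 and 28 nt, against 18701, 30092 and 1646 at 29, 30 and 31 nt. Dog family 3 had 10159, 3649 and 41648 reads at the short lengths, against 7668, 1563 and 583 at the long ones. The 26 nt form of this family was read more often than the 27 nt form, so its short ends did not fade evenly with length. The same order of 26 and 27 nt held in bat families 1 and 2 and in horse families 1 and 3, given below.

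Bat and horse mixed families led by the short and by the long class. Bat family 1 had 5954, 1409 and 17377 reads at 26, 27 and 28 nt, against 253037, 542 and 38 at 29, 30 and 31 nt, so that a single 29 nt form held most of its reads. Bat family 2 had 8912, 6447 and 422 reads at the short lengths, against 3, 25 and 302 at the long ones. It also had 3788 reads at 24 nt and 4747 at 32 nt, so the short and the 32 nt forms stood apart with few reads between them. Orientation was right for only 7.255% of the bat rRNA reads, so bat family 2 may be shown as its reverse complement if it is a structural RNA. Bat family 3 had 98, 296 and 11184 reads, against 1759, 3 and 59.

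Horse family 1 had 3805, 571 and 56332 reads at 26, 27 and 28 nt, against 198768, 177129 and 3554 at 29, 30 and 31 nt. Horse family 2 peaked at 27 nt, with 2523, 29077 and 6347 reads, against 8377, 13325 and 11579. This was the only one of the 9 families with its peak at 27 nt, and its long forms were spread over the 3 lengths. Horse family 3 had 3879, 824 and 26820 reads, against 51185, 44485 and 7484. The most read 26 to 28 nt sequence listed in the horse could not be oriented, because only a share of 0.717 of the variant reads of its leading sequence was on the first 24 nt, under the 80% asked. As listed it is tctcaggtctcaggttcacatttagcaa, with 79003 reads.

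By reads the class was the smaller one in each testis. It took 18.0% of all reads in the dog (17.96 to 17.98%), 18.1% in the bat (18.09 to 18.16%) and 21.1% in the horse (21.08 to 21.11%). The 29 to 31 nt class took 73.4%, 71.5% and 68.9%. By distinct sequences its share was larger than by reads, though again under that of the long class, with 37.4%, 30.9% and 37.8%, against 49.97%, 53.0% and 46.6% for the long class.

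Within the class reads grew with length. In the dog, 26, 27 and 28 nt held 1156607, 1835346 and 4433548 reads. In the bat they held 216075, 270512 and 569865 reads, and in the horse 1863954, 2455576 and 3238145. The step from 28 to 29 nt was larger than the steps within the class in each species. The 29 nt length held 12042430 reads in the dog, 1682271 in the bat and 7566941 in the horse. No separate peak stood at 26 or 27 nt in the 3 libraries. The 26 nt length took 5.20% of all reads in the horse, 3.71% in the bat and 2.80% in the dog.

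Known RNAs were a small part except in the bat. The tRNA-Gly-GCC and tRNA-Glu-CTC 5′ fragments, common cleavage products, took 0.00896% of the class in the dog, 0.268% in the bat and 0.0432% in the horse, against 0.752%, 0.485% and 0.856% at 29 to 31 nt. Fragments of 5S and 5.8S rRNA took 0.0469% in the dog, 3.98% in the bat and 0.114% in the horse, against 0.0466%, 4.93% and 0.103%. The listed miRNAs took 0.0140% in the dog and under that in the bat (0.00473%) and horse (0.00134%).

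The short class was spread more thinly than the long one. A short sequence had a mean of 6.76 reads in the dog, 5.37 in the bat and 5.03 in the horse, against 20.7, 12.4 and 13.3 reads for a long one. Sequences read once were 68.1% of the short class in the dog, 68.9% in the bat and 65.8% in the horse, against 54.5%, 61.8% and 57.6% of the long class. Depth differs between classes, so both were also thinned to the 1056452 reads of the bat short class by the hypergeometric expectation. Sequences read once were then 74.5% in the dog, 68.9% in the bat and 75.5% in the horse, against 67.1%, 63.7% and 69.6%. At that depth 270972 distinct short sequences were expected in the dog, 196717 in the bat and 368646 in the horse, against 181403, 142737 and 239309 long ones.

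Strongly read sequences were fewer in the short class, which also had fewer reads in total. Sequences with at least 1000 reads numbered 602 in the dog, 75 in the bat and 528 in the horse, and held 36.4%, 20.4% and 20.4% of the short reads. In the long class 3302, 409 and 2800 such sequences held 59.5%, 41.8% and 47.2%. These counts and shares were not adjusted for the depth of the classes. The 10 most read short sequences held 8.20% of the short reads in the dog, 8.99% in the bat and 4.55% in the horse, against 8.25%, 14.0% and 6.11% of the long reads. For the 100 most read the shares were 23.25%, 22.4% and 11.1%, against 23.24%, 29.4% and 16.4%, so the classes were level in the dog. To reach 50% of the short reads took 2879 of 1098397 sequences in the dog, 1740 of 196717 in the bat and 13044 of 1501444 in the horse. For the long class it took 1398 of 1467894, 912 of 337315 and 3569 of 1849744.

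Most short reads were exact shortened forms of longer listed sequences. A short sequence was called shortened where it was the exact start or the exact end of a listed 29 to 31 nt sequence, which needs no orientation. This held for 48.3% of the distinct short sequences in the dog (48.23 to 48.41%), 62.2% in the bat (61.95 to 62.38%) and 50.0% in the horse (49.95 to 50.11%). By reads it held for 90.3%, 92.0% and 86.9%. In contrast, only 2.92%, 2.71% and 3.94% of the sequences lay inside a longer one without touching either end.

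Listed starts and ends were matched about equally often. Matching was done as listed, and part of the RNAs are listed as their reverse complement. A listed start can thus be either end of the RNA, so these shares cannot compare shortening at the 5′ and the 3′ end. In the dog 35.0% of the sequences matched a start and 34.9% an end. In the bat the shares were 45.5% and 45.7%, and in the horse 34.7% and 35.2%. Both ends were matched, in different longer sequences or in the same repeat, by 21.6% of the sequences and 77.4% of the reads in the dog, 29.05% and 70.6% in the bat, and 19.9% and 68.2% in the horse. Such sequences have neighbours that extend them on either side.

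The shortened share followed the read count of the sequence. Of the sequences read once, 35.2% had a longer form in the dog, 48.9% in the bat and 37.6% in the horse. Of those with 2 to 9 reads the shares were 71.85%, 89.7% and 69.8%, and of those with 10 to 99 reads 97.4%, 99.1% and 97.0%. Every sequence with at least 1000 reads had a longer form in the dog (602 of 602) and bat (75 of 75), and 527 of 528 did in the horse. Any listed longer form counted, however few its reads. A longer form at least as read was listed for 44.7%, 48% and 47.2% of these sequences. Of those with 10 to 99 reads it was listed for 67.2%, 77.5% and 62.6%. Matching was exact, so a read with a sequencing error counts as a sequence of its own.

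Length within the class made little difference in the bat. There 62.1% of the 26 nt, 62.0% of the 27 nt and 62.3% of the 28 nt sequences were shortened forms. In the dog the shares were 44.6%, 46.1% and 52.8%, and in the horse 47.9%, 48.1% and 53.8%. Seen from the other side, 44.2% of the 29 to 31 nt sequences had a 26 to 28 nt form in the dog, 44.5% in the bat and 47.4% in the horse, with 94.6%, 93.2% and 93.2% of the long reads.

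A shortened form was usually read less than its longer form. The median ratio of its reads to those of the most read longer form was 0.333 in the dog (quartiles 0.0870 and 1), 0.25 in the bat (0.0714 and 0.955) and 0.5 in the horse (0.129 and 1). The short form was read more than any of its longer forms in 13.0% of the cases in the dog, 7.94% in the bat and 15.3% in the horse. These 69058 sequences in the dog, 9710 in the bat and 114890 in the horse nevertheless held 42.3%, 29.8% and 34.6% of all short reads.

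Short sequences with no longer listed form at 29 to 32 nt were many but weakly read. They were 48.0% of the distinct sequences in the dog, 34.4% in the bat and 44.8% in the horse, with 8.84%, 7.16% and 11.5% of the short reads. Of these, 85.9%, 93.6% and 83.0% were read once. At least 100 reads were reached by 11 of them in the dog, 1 in the bat and 14 in the horse, and the most read had 607, 115 and 1201 reads.

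Some 5′ ends nevertheless ended mainly at 26 to 28 nt. A family is called led by the short class where its most read sequence is 26 to 28 nt long. Among families of at least 10 reads, 12794 of 61668 were led by the short class in the dog, 2376 of 14625 in the bat and 18298 of 76244 in the horse. They held 52.0% of the oriented short reads of these families in the dog (51.97 to 52.07%), 37.5% in the bat (37.35 to 37.60%) and 42.8% in the horse (42.78 to 42.89%). The remaining short reads lay in families led by another length, mostly 29 to 31 nt, which led 45611, 11195 and 51579 families.

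Families led by the short class kept long forms, and the reverse. The following leave out families with known RNAs. Long forms were present in 86.1% of the short-led families in the dog, 87.9% in the bat and 87.55% in the horse, and short forms in 79.6%, 87.6% and 83.7% of the long-led ones. The mean share of a short-led family's reads at 26, 27 and 28 nt was 14.5%, 21.4% and 33.4% in the dog and 14.0%, 18.4% and 31.9% in the bat. In the horse it was 18.7%, 24.1% and 23.8%, so that 27 and 28 nt were level. The lengths chose these families, so their length profile is a description. A median of 30 reads stood behind a short-led family in the dog, 30 in the bat and 28 in the horse, against 46, 43 and 41 behind a long-led one.

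U led at the first base of the short class in the 3 testes. In oriented reads U stood first in 69.9% in the dog (69.80 to 69.90%), 68.9% in the bat (68.79 to 69.02%) and 77.4% in the horse (77.35 to 77.45%). At 29 to 31 nt it stood first in 69.9%, 75.2% and 79.3%. The difference between the classes, short minus long, was -0.0155 percentage points in the dog, -6.31 in the bat and -1.86 in the horse. Under 95% orientation, which keeps fewer reads, the shares were 84.5%, 75.1% and 83.9%, against 76.4%, 86.5% and 85.5%, so that the short class was then the higher one in the dog. Without known RNAs the shares were 69.9%, 73.0% and 77.6% in the short class, against 70.6%, 81.6% and 80.4% in the long class. As listed, T stood first in 55.2%, 46.4% and 48.3% of the short reads, and A last in 49.2%, 44.8% and 50.2%.

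Counted by distinct sequence the order of the classes turned. U stood first in 55.0% of the short sequences in the dog, 60.7% in the bat and 59.1% in the horse, against 49.8%, 56.9% and 56.5% of the long ones. Sequences read once had the lowest share of a first U in both classes. Of oriented short sequences read once, 42.1% began with U in the dog, 45.0% in the bat and 45.3% in the horse, against 35.8%, 34.8% and 39.0% of the long ones. Of those with at least 100 but under 1000 reads the shares were 75.1%, 74.2% and 81.1% in the short class, against 68.6%, 81.8% and 79.8% in the long class. Of those with at least 1000 reads they were 73.1%, 62.7% and 81.05%, against 69.6%, 74.5% and 81.7%. In the short class no further rise with reads was seen. The intervals of the upper range were 68.47 to 77.41% in the dog and 76.01 to 85.43% in the horse, and hold the lower range. In the long class the upper range had a higher share in the dog and horse and a lower one in the bat. There too the dog (67.56 to 71.64%) and horse (79.78 to 83.53%) intervals hold the lower range. The short bat value rests on 59 sequences, and its interval (49.15 to 74.96%) holds the 74.2% of the lower read range. Known RNAs were kept in these counts.

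Base use moved with length inside the class in the bat. There U stood first in 59.5% of the 26 nt reads, 62.7% of the 27 nt reads and 75.1% of the 28 nt reads. In distinct bat sequences the 3 lengths were level, at 60.1%, 61.1% and 60.8%. In the dog the read shares were 74.5%, 70.8% and 68.6%, and in the horse 76.9%, 76.2% and 78.5%. These shares keep known RNAs. Bat family 2, with 8912 reads at 26 nt and 422 at 28 nt, begins with C as oriented, a direction that was not checked. Bat families 1 and 3, with 17377 and 11184 reads at 28 nt, begin with U. Their part in the step was not tested.

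Position 2 and the last base also differed between the libraries. At position 2 G led in the bat, with 40.8% of the short reads and 38.8% of the long reads, while A led in the dog (32.6% and 31.4%) and horse (32.2% and 37.1%). The last base was C in 41.8% of the short reads in the horse, against 32.6% of the long reads. In the dog it was A in 36.15% of the short reads, against 28.9% of the long reads. Over distinct sequences the classes were close, with A in 29.5% of the short and 28.97% of the long ones. Dog families 1 and 2, whose 28 nt forms end in A, had 122778 and 120544 of these reads.

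A at position 10, the base opposite the first U of a ping-pong partner, was raised in the dog and horse. Among distinct oriented short sequences that did not begin with U it was 34.3% in the dog (33.96 to 34.65%), 27.7% in the bat (27.07 to 28.43%) and 33.1% in the horse (32.77 to 33.39%). The mean over positions 5 to 9 and 11 to 15 of these sequences was 28.3%, 26.1% and 27.9%, and the highest of these positions was 30.25%, 28.2% and 31.2%. Position 10 was therefore above each of its neighbours in the dog and horse, and below the highest of them in the bat. At 95% orientation it was 27.68% in the bat, above the highest neighbour at 27.09%, so the order there depended on the orientation. The long class gave 35.4%, 28.4% and 34.1%, slightly more in each species. Sequences that began with U had A at position 10 in 32.9%, 25.2% and 29.2% of the short class. The mean over the same neighbours was 28.2%, 24.5% and 27.6% there, and the highest neighbour was 35.4%, 30.7% and 36.5%.

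Complementary 5′ ends overlapped by 10 nt more often than by other lengths. Overlaps were counted between distinct sequences that do not share their first 24 nt, each judged on 10 complementary nt, and their number at 10 nt was divided by the median number over the overlaps of 11 to 24 nt. At 10 nt every pair was counted from both of its sides, so the number of different 10 nt pairs is smaller than the count. At 11 to 24 nt the start of a sequence was set against an inner stretch of its partner. Such a pair could count from a single side or from both. Within the short class dog had a count of 201654 pairs at 10 nt, a ratio of 2.71. Bat had 6756 pairs and a ratio of 1.30, and horse 614524 pairs and a ratio of 4.66. Among the other overlaps the ratio reached at most 1.28 in the dog and 2.16 in the horse, both at 11 nt, and 1.14 in the bat at 24 nt. The 10 nt overlap was thus the highest of those counted in the 3 species, with the narrowest margin in the bat.

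The pairs tailed off from 10 nt in the dog and horse. Dog had 95164 pairs at 11 nt, 85650 at 12 nt and 78811 at 13 nt, and horse 284733, 213683 and 228712. Bat had 5167, 5198 and 5199 pairs at these overlaps and its next highest counts at 23 and 24 nt, with 5861 and 5947.

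The overlap ratio was similar within and between the classes. Both classes hold length variants of the same 5′ ends, so this cannot show whether partners differ by length. The ratio within 29 to 31 nt was 2.76 in the dog, 1.22 in the bat and 4.48 in the horse, and between the classes it was 2.76, 1.24 and 4.62. By single length the ratio in the dog was 2.67 at 26 nt, 2.68 at 27 nt and 2.72 at 28 nt. In the horse it was 3.07, 4.60 and 5.83, higher at each longer length. In the bat it was 1.30 and 1.36 at 26 and 27 nt, while at 28 nt it was 1.16, under the 1.21 of the 23 nt overlap.

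Many of these pairs came from length variants of the same 5′ ends. With 1 sequence per 5′ end the ratio within the short class was 1.35 in the dog, 1.08 in the bat and 1.84 in the horse, against 1.23, 1.08 and 1.55 within the long class. The highest other overlap in the short class then gave 1.085, 1.15 and 1.39, which in the bat was above the 10 nt overlap. Under 95% orientation this count gave 2.27 in the dog, 1.53 in the bat and 2.56 in the horse, against 1.87, 1.36 and 2.07 in the long class. The highest other overlap of the short class was then 1.365, 1.29 and 1.44. An excess at 10 nt in the bat thus depended on how strictly the sequences were oriented. Read in reverse, so that 3′ ends were compared, the ratio was 0.988, 0.993 and 0.975.

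A few complementary starts carried much of the overlap. The pair of starts with most 10 nt pairs is shown by its most read members, with the 10 complementary bases in capitals.
Dog side A: TGCAGAAGAAtgaaactagaccactc
Dog side B: TTCTTCTGCAtgtgtaccaggtcatga
Bat side A: TCTAGTTGTAggatgtcctttcaacc
Bat side B: TACAACTAGAgaattaaaggggaagcc
Horse side A: TTCTAGTTGTggcatgtgggacgccacc
Horse side B: ACAACTAGAAgaacccacaacgagaa

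In the horse 402 short sequences with the start of side A (7314 reads, 84 different 5′ ends) faced 227 with the start of side B (4265 reads, 43 ends). These starts made up 29.7% of the 10 nt pairs of the horse. In the dog 150 sequences (10464 reads, 30 ends) faced 40 (230 reads, 7 ends), with 5.95% of the pairs. In the bat 18 sequences (813 reads, 7 ends) faced 2 (4 reads, 1 end), with 1.07%. The sides were unequal in reads, the most in the bat and dog. The 10 leading pairs of starts held 64.75% of the 10 nt pairs in the horse, 28.9% in the dog and 7.90% in the bat. Without the leading pair alone the ratio was 2.55 in the dog, 1.29 in the bat and 3.34 in the horse.

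Families led by the short class showed the larger 10 nt excess in the dog and horse. Each family was counted once here, by its leading sequence, and known RNAs were left out. The ratio among short-led families was 2.92 in the dog (1412 pairs among 12783 families), 1.16 in the bat (22 pairs among 2346, which are 11 different pairs) and 4.01 in the horse (3508 pairs among 18280). Among long-led families it was 1.71 in the dog (9540 pairs among 45579), 1.32 in the bat (502 among 11170) and 2.125 in the horse (13174 among 51563). The highest other overlap of the short-led families gave 1.32, 1.47 and 1.93, so that the 10 nt overlap led in the dog and horse but not in the bat, where pairs were few. Between short-led and long-led families the ratio was 1.96, 1.58 and 3.57.

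The difference between these kinds of family held without the leading pair of starts, which carried 10.2% of the short-led pairs in the dog and 20.1% in the horse. The ratio was then 2.625 for short-led families, against 1.68 for long-led ones in the dog, and 3.37 against 1.93 in the horse. The 10 leading pairs of starts held 46.7% of the short-led pairs in the dog and 59.9% in the horse, against 14.3% and 32.03% of the long-led pairs. The short-led pairs lay on fewer starts, 250 in the dog and 412 in the horse, against 2588 and 2452. The short-led sets were also smaller, with 12783 against 45579 families in the dog and 18280 against 51563 in the horse. The number of starts and the share of the leading ones depend on set size, which was not made equal. They therefore do not show a trait of the short-led families. Under 95% orientation the ratio of short-led families was 9.82 in the dog (432 pairs among 4210 families) and 5.05 in the horse (434 among 6107), against 2.98 and 3.64 for long-led ones. In the bat no such pair was found (0 among 890), against 2.21. With 1 library per species the difference was not tested.

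The first base of these families did not follow 1 pattern across species. U led 62.3% of the short-led families in the dog (61.48 to 63.17%), against 58.6% of the long-led ones (58.12 to 59.03%). In the bat U led 66.0% of the short-led families (64.07 to 67.94%), against 73.3% (72.47 to 74.12%). In the horse U led 65.9% (65.18 to 66.56%), against 68.8% (68.38 to 69.18%). A at position 10, among families without a first U, was 34.5% in the dog, 28.4% in the bat and 34.1% in the horse for the short-led ones, against 36.5%, 30.5% and 35.5% for the long-led ones.

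Over distinct sequences the 4 bases were used about evenly just after the short forms end. In oriented pairs of a short form and the longer form that extends it, the first base after the short 3′ end was U in 26.8% in the dog (26.53 to 27.03%), 24.85% in the bat (24.38 to 25.31%) and 25.03% in the horse (24.82 to 25.24%). The base after that was U in 25.04%, 25.2% and 23.25%, and the last base of the short form in 23.8%, 25.9% and 23.2%. That last base was most often C in the horse, with 30.1% of the sequences and 42.3% of the reads. For 29 to 31 nt forms extended to 32 nt, the next base was U in 27.7%, 27.9% and 27.75%. In the short class the 4 bases at the first position after the end ran from 22.9 to 27.2% in the dog, 23.5 to 26.4% in the bat and 23.3 to 25.96% in the horse. By reads the bat was less even, with A in 29.9%, C in 17.4%, G in 31.5% and U in 21.2%.

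Some short sequences were found in more than 1 species. The matching shares for the long class and for all listed lengths are not given here. Whether the shares below are low for this class therefore cannot be said. On either strand 1272 were listed in the dog and bat, equal to 0.116% of the short sequences in dog and 0.647% in bat. Dog and horse had 6067 in both (0.552% in dog, 0.404% in horse), and bat and horse 1547 (0.786% in bat, 0.103% in horse). Sequences shared by dog and bat held 0.429% of the short reads of the dog and 5.45% of those of the bat. Those shared by dog and horse held 3.17% and 2.475%, and those shared by bat and horse 7.45% (bat) and 0.707% (horse). Without known RNAs the bat shares were 2.13% with dog and 3.85% with horse. In all 3 species 667 short sequences were listed.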

How the data were processed

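Adult testis small RNA of dog, bat and horse was isolated after TRIzol extraction and sequenced as 50 nt single-end reads, per the labels' protocols. The submitters' processing notes name Bowtie, RSEM and the build CanFam3.1, with no versions or roles. How reads were trimmed, selected by length or mapped is not given in the sources used here. The deposited files hold raw read counts per sequence of 24 to 32 nt, with 41328689 reads in the dog, 5828928 in the bat and 35830283 in the horse. These totals are not full depth. A floor of 3 reads is 7.26e-06%, 5.15e-05% and 8.37e-06% of them.

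Identical sequences were summed. Orientation linked sequences to the most read one sharing 24 nt at either end, and required 80% of at least 10 variant reads on 1 end. Known RNAs (2 tRNA fragments, 5S and 5.8S rRNA and 25 miRNAs, written from general knowledge) were matched by 20 nt on either strand, and their sequences are not shown. Other structural RNAs, such as snRNA, were not on this list and were not left out. Named families were the 3 with most 26 to 28 nt reads per species that matched no known RNA, the most read family led by the class, which was among those 3 in each species, and the leading pair of starts. Python 3.11.15, numpy and scipy were used, and the steps were tested on simulated data. Members and measures were chosen with earlier results of these data known. The mRNA files and any genome were not used here.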

Additional observations from a re-analysis of the deposited data

Results flagged for a closer look

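In 3 measures the difference between the short and the long class ran one way in some species and the other way in others, in each case untested with 1 library per species. The share of families with a first U, short-led minus long-led, was 3.75 percentage points in the dog, -7.28 in the bat and -2.905 in the horse. At 95% orientation U led 68.4% of the short-led families in the dog, 72.7% in the bat and 72.2% in the horse, against 64.6%, 81.0% and 76.25% of the long-led ones, so the directions were as before. The 10 nt overlap ratio within the classes, short minus long, was -0.0487 in the dog, 0.0841 in the bat and 0.183 in the horse. These are small beside the spread of the ratio over the other overlaps, which in the short class ran from 0.913 to 1.28 in the dog, 0.942 to 1.14 in the bat and 0.922 to 2.16 in the horse. The ratio of families led by the short class minus that of families led by the long class was 1.21 in the dog, -0.161 in the bat and 1.89 in the horse. The bat value rests on 11 different pairs among short-led families.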

How the results depend on the processing

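Of 75 alternatives, 20 left a value inside its interval or, for a ratio, within 1.5 times, and 55 moved it. Values follow for dog, bat and horse in turn. Counted over distinct sequences the class share was 37.4%, 30.9% and 37.8%. The first-U share was 55.2%, 46.4% and 48.3% as listed, 55.0%, 60.7% and 59.1% over distinct sequences, and 84.5%, 75.1% and 83.9% at 95% orientation. Without known RNAs it was 73.0% in the bat and 77.6% in the horse. A at position 10 was 51.6%, 21.65% and 38.2% by reads, and 33.4% in the horse at 95%. The overlap ratio was 1.35 in the dog and 1.84 in the horse with 1 sequence per 5′ end, 6.28 in the dog and 2.20 in the bat at 95%, 1.07 and 1.215 in the dog and horse as listed with ends set against starts, and 0.988 and 0.975 reversed. In the bat, ends against starts gave 0.972. At 95%, short-led families had a ratio of 9.82 in the dog and no pair in the bat (0), and long-led ones 2.98, 2.21 and 3.64. The shortened share was 90.3%, 92.0% and 86.9% by reads, 42.0%, 57.2% and 42.4% with a longer form at least as read, and 97.7%, 99.1% and 97.25% over sequences of at least 10 reads. Short-led families of at least 100 reads held 51.6%, 36.4% and 39.8% of short reads, and 39.5% in the bat without known RNAs. U after the 3′ end was 24.4%, 21.2% and 25.5% by reads and 26.45%, 24.4% and 24.5% at 95%. Sequences read once were 74.5% in the dog and 75.5% in the horse after thinning, and 85.4%, 93.0% and 82.2% among those not shortened. The cause of these changes was not tested. Leaving out the leading pair of starts, reversing, and the family ratios at 95% were chosen after seeing the data. No paired analysis was possible because each species had 1 library. The bat short-led families held only 11 different pairs at 10 nt.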
